A study of Mus musculus with 12 samples.

Results

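The adenosine deaminases that act on RNA are encoded in the mouse by 3 genes, Adarb1 (protein ADAR2), Adar (ADAR1) and Adarb2 (ADAR3). All 3 were found in the deposited table by their symbols, out of 19505 genes measured, each with 1 probe set. Adarb1 was chosen by its own log2 values, because its response to insulin differed between germ-free and colonized mice, so its values are described here and not tested. Adar and Adarb2 were included as the rest of the family, and their contrasts were tested.

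Expression was measured on Affymetrix arrays in dissected adrenal medullae of 12 male C57Bl6 mice, 1 array per animal. The 4 groups of 3 mice were germ-free mice given insulin (animals 10 to 12), germ-free mice given saline (animals 7 to 9), normally colonized mice given insulin (animals 4 to 6) and normally colonized mice given saline (animals 1 to 3). Germ-free mice carried no gut flora. Each animal fasted for 3 h, received human insulin at 2 IU/kg or saline into the peritoneum, and was killed 90 min later. All groups therefore shared the fast and the injection, and the study asked how the adrenal response to low blood glucose depends on gut colonization.

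These enzymes bind double-stranded RNA and turn adenosine into inosine, which the ribosome reads as guanosine. ADAR2 is known for recoding messages of the nervous system, above all that of the glutamate receptor subunit Gria2, and regulated secretion was described to depend on it in rat insulinoma and PC12 cells, the last a line derived from chromaffin tumour. ADAR1, which has an interferon-inducible form, edits repeats in many transcripts and keeps the cell's own double-stranded RNA from being sensed as viral. ADAR3 is a brain protein with no known editing activity. The arrays measured transcript levels, and editing itself was not measured.

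The promoters of the family are shown because the cyclic AMP factor Creb1 was reported to act on ADAR2 and interferon is known to induce ADAR1. RefSeq (GRCm38.p6) lists 1 promoter for Adarb1, 3 for Adar and 1 for Adarb2, each a stretch of 300 bases around the start. The full cyclic AMP response element TGACGTCA, searched on both strands, was found in none of these 5 and in 1.79% of all 32851 promoters. Its short form TGACG, which lies within the full element, was found in 1 of the 5, that of Adarb1, and in 20.8% of all promoters. The full interferon-stimulated response element, searched as GAAANNGAA with a further A at its end, was in none of the 5 and in 3.44% of all promoters. GAAANNGAA itself, a shortening chosen after these sequences were seen, was in 1 of the 3 Adar promoters and in 8.56% of all promoters. The Adarb2 promoter held none of these motifs. The promoter of Adarb1 (chr10:77418224-77418523, minus strand) and that promoter of Adar (chr3:89730468-89730767, plus strand) read as follows, with the matches in capitals. The Adarb1 match reads CGTCA, the reverse complement of the short form, and begins at base -77 relative to the start. The Adar matches begin at bases 2 and 284 of the stretch.
Adarb1 promoter: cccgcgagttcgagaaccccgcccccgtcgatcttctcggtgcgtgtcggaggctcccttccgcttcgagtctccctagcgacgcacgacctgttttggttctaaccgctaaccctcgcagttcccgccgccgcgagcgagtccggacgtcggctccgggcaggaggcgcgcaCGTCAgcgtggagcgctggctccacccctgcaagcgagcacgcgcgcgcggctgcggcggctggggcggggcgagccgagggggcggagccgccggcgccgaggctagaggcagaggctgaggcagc
Adar promoter: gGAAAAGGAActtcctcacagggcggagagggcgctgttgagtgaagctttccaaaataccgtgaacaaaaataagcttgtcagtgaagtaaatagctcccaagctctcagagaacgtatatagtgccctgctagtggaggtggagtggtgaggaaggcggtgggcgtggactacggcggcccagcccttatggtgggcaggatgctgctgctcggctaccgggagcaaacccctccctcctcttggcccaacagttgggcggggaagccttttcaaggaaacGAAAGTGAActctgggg

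Some properties of the whole series bear on the comparison of germ-free with colonized mice. The median of the 5222 negative control rows was 5.30 to 5.54 on the log2 scale on germ-free arrays and 4.70 to 4.83 on colonized arrays, so the ranges did not overlap. Sorted values of all rows differed on average by 0.0884 to 0.136 between a germ-free and a colonized array, and by 0.00828 to 0.0490 between arrays of the same colonization state. The labels do not say whether arrays of both states were processed together, so any array batch and colonization cannot be told apart. Array pairs within a group correlated at r = 0.954 to 0.993 over the gene probe sets. Of the 14 chromaffin markers on the list 12 were measured, and none of the 12 lay below the negative control median on all arrays of any group.

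Adarb1 was highest in germ-free mice given saline and lowest in colonized mice given saline. Its log2 values were 10.37, 10.39 and 10.65 in germ-free insulin mice, against 11.59, 11.45 and 11.24 in germ-free saline mice. They were 9.65, 9.83 and 10.02 in colonized insulin mice, against 9.37, 8.97 and 9.46 in colonized saline mice. Within each colonization state the insulin and saline arrays did not overlap, and they were separated in opposite directions.

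Group means of Adarb1 were 10.47 ± 0.16 (SD, n = 3) in germ-free insulin, 11.43 ± 0.18 in germ-free saline, 9.83 ± 0.18 in colonized insulin and 9.27 ± 0.26 in colonized saline mice. From high to low the order was germ-free saline, germ-free insulin, colonized insulin and colonized saline, and neighbours in that order did not overlap on any array. All arrays lay at least 4.27 above the median of their negative controls, and 94.9% of genes had a lower mean.

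**Figure D1:**
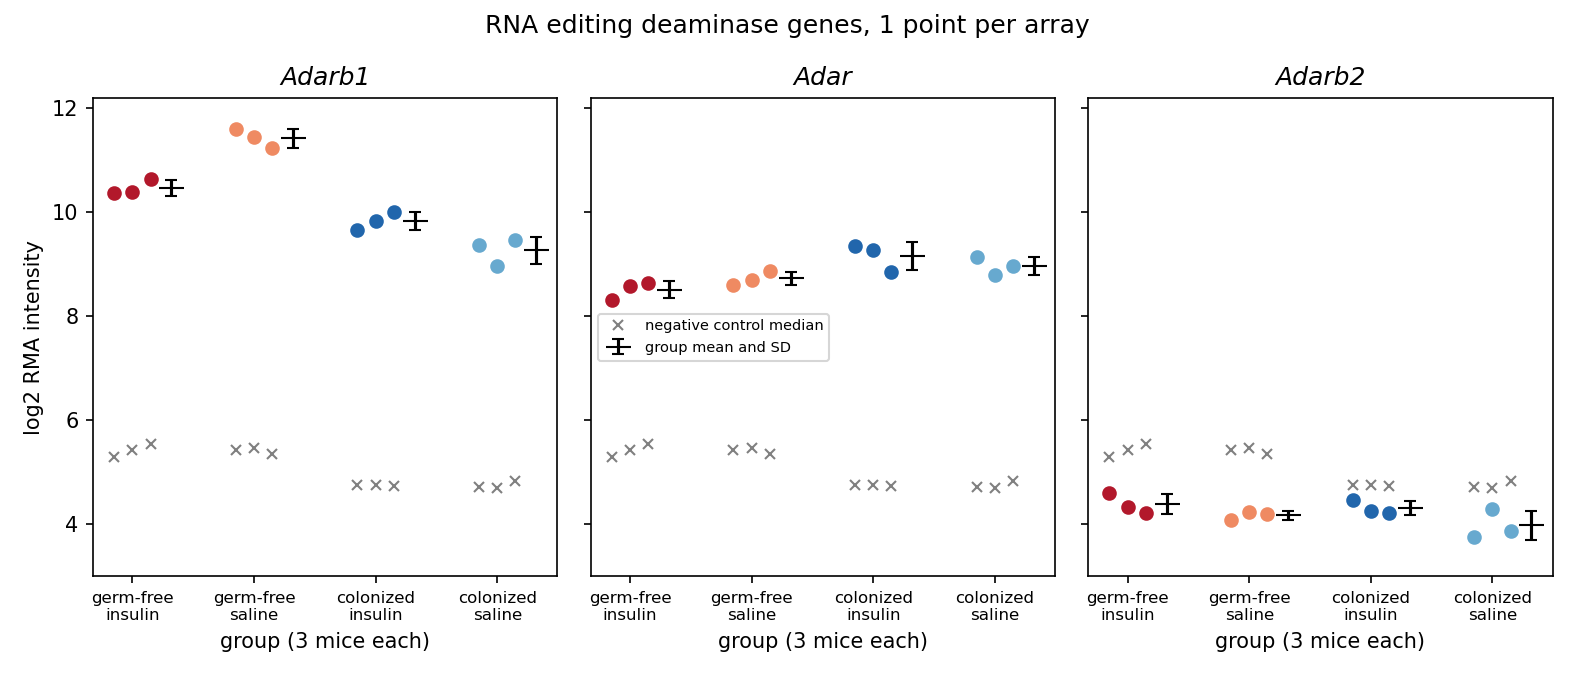
Log2 RMA intensity (vertical axis) of Adarb1, Adar and Adarb2 in each of the 4 groups (horizontal axis), with 1 coloured point per array, the group mean and SD in black, and the negative control median of each array as a grey cross. Adarb1 spans 2.63 on the log2 scale with no overlap between groups, Adar spans 1.02, and Adarb2 lies below the negative control median on 12 of 12 arrays.

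Insulin minus saline for Adarb1 was -0.96 ± 0.16 in germ-free mice (log2, SE from the limma fit, n = 3 arrays per group), a ratio of 0.515. In colonized mice it was 0.57 ± 0.16, a ratio of 1.48. The difference of these insulin effects was -1.52 ± 0.22, the contrast that chose the gene. In that contrast 0.0359% of genes were called at a limma adjusted p under 0.05, and nothing is read from that share for Adarb1. Of all genes 0.0103% were called higher and 0.0256% lower. By size, ignoring the sign, the difference of Adarb1 ranked 146 among 19505 genes, and since it chose the gene the rank is not read as a result.

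The level between colonization states was described in the same way. Germ-free minus colonized was 2.16 ± 0.16 after saline, a ratio of 4.47, and by size it ranked 36 among 19505 genes. After insulin it was 0.64 ± 0.16, a ratio of 1.55. Each contrast shares arrays with the one that chose the gene, so neither these sizes nor the rank of 36 is read as a result. Across all genes groups did not overlap for 27.3% in the comparison of colonization states after saline and for 31.9% after insulin. They did not overlap for 19.7% in the insulin comparison in germ-free mice and for 14.1% in colonized mice. Separation within both states in opposite directions was seen for 1.24% of genes.

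Levels of cell type markers moved with colonization and insulin beside Adarb1. In bulk tissue fewer cells of a type and less RNA per cell cannot be told apart. The mean of the 12 chromaffin markers ran from 9.45 to 9.96 in germ-free insulin, 10.22 to 10.37 in germ-free saline, 10.39 to 10.93 in colonized insulin and 10.28 to 10.76 in colonized saline mice. Among germ-free mice both this mean and Adarb1 were lower after insulin, while across colonization states Adarb1 was higher and the chromaffin mean lower in germ-free insulin than in colonized insulin mice. With the chromaffin mean as a covariate the difference of insulin effects of Adarb1 was -1.70 ± 0.32, and germ-free minus colonized after insulin was 0.41 ± 0.33. The chromaffin means of germ-free insulin and colonized insulin arrays did not overlap, so the last value extrapolates between groups.

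Markers of other tissues also differed between groups. The 11 intestinal epithelium markers averaged 5.09 to 5.37 in germ-free insulin, 7.21 to 8.82 in germ-free saline, 5.03 to 5.16 in colonized insulin and 5.11 to 5.22 in colonized saline mice. In germ-free insulin mice 6 of the 11 (Reg1, Fabp2, Akp3, Muc13, Cdh17 and Cdx2) lay below the negative control median on all arrays, against 1 (Cdx2) in germ-free saline mice. In colonized insulin mice 4 (Reg1, Akp3, Muc13 and Cdh17) and in colonized saline mice 3 (Reg1, Muc13 and Cdh17) lay below it. The germ-free saline group, where Adarb1 was highest, was thus also the group where intestinal markers were highest. With their mean as a covariate the difference of insulin effects was -1.24 ± 0.50. Since the range of that mean in germ-free saline mice overlapped that of no other group, this fit extrapolates between groups. The 10 adrenal cortex markers averaged 12.68 to 12.72, 12.72 to 12.74, 12.59 to 12.65 and 12.24 to 12.60 in germ-free insulin, germ-free saline, colonized insulin and colonized saline mice, and none lay below the negative control median on all arrays of a group. With the cortex mean as a covariate the colonized insulin effect of Adarb1 was 0.28 ± 0.16 and the difference of insulin effects -1.19 ± 0.21.

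The 10 adipocyte markers averaged 10.21 to 10.56 in germ-free insulin, 8.97 to 9.77 in germ-free saline, 6.09 to 8.56 in colonized insulin and 6.45 to 10.55 in colonized saline mice. Of these, Lep lay below the negative control median on all germ-free saline arrays. With their mean as a covariate the difference of insulin effects of Adarb1 was -1.52 ± 0.27. Hepatocyte markers, 9 in number, averaged 7.57 to 9.18, 8.99 to 10.41, 6.90 to 7.04 and 6.74 to 11.14 in the 4 groups in the same order, and the part of that list in the result was not tested. The 7 pituitary markers averaged 6.77 to 7.71, 5.33 to 5.75, 5.15 to 5.43 and 5.13 to 5.23 in that order, and their part was not tested either. Below the negative control median lay Tshb in germ-free insulin mice, Cga, Pomc and Tshb in germ-free saline mice, none in colonized insulin mice and Cga in colonized saline mice.

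With the negative control median as a covariate, added after the data were seen, the difference of insulin effects was -1.53 ± 0.20. The comparison of colonization states then gave 1.13 ± 0.55 after saline and -0.40 ± 0.55 after insulin, the last with the opposite sign. Since the negative control ranges of germ-free and colonized arrays did not overlap, that fit extrapolates between the states. Leaving out each array in turn gave a difference of insulin effects of -1.62 to -1.37 for Adarb1, the last without colonized saline animal 2.

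**Figure D2:**
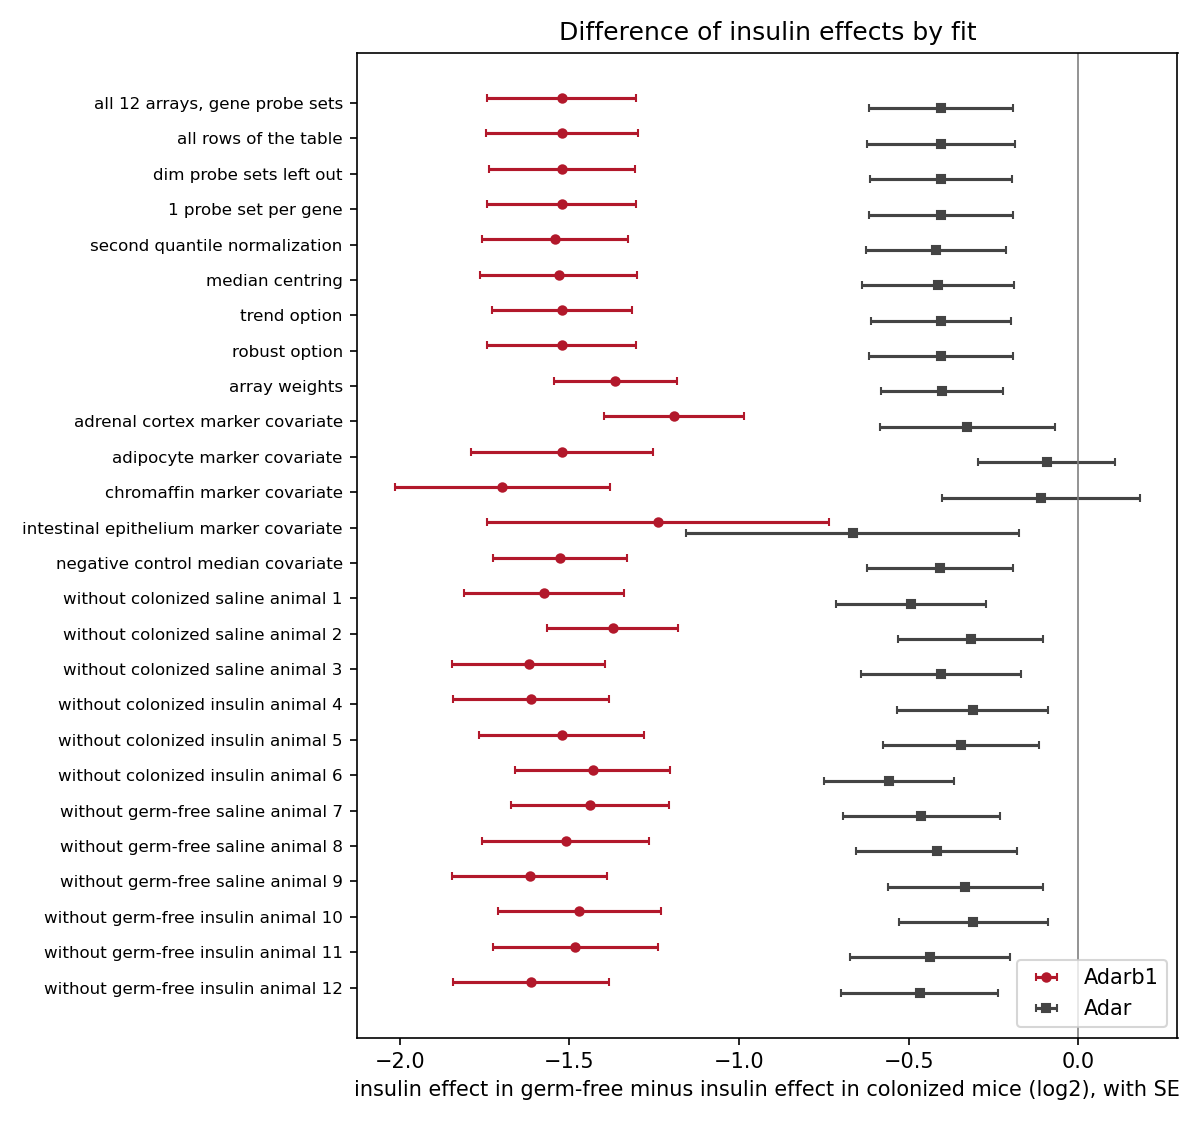
Insulin effect in germ-free minus insulin effect in colonized mice (horizontal axis, log2, with SE) for Adarb1 (circles) and Adar (squares) in the fit to all 12 arrays and in each alternative fit (vertical axis). Adarb1 stays between -1.70 and -1.19, and Adar between -0.66 and -0.09.

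Adar showed a pattern of its own. Its log2 values were 8.32, 8.58 and 8.64 in germ-free insulin mice, against 8.61, 8.70 and 8.87 in germ-free saline mice. They were 9.34, 9.28 and 8.85 in colonized insulin mice, against 9.14, 8.79 and 8.97 in colonized saline mice. The insulin and saline arrays overlapped in both states, whereas all 3 germ-free insulin arrays lay below all 3 colonized insulin arrays. The table gives 1 value for Adar, so its interferon-inducible and constitutive forms were not told apart.

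After insulin Adar was lower in germ-free than in colonized mice, at 8.51 ± 0.17 against 9.16 ± 0.27 (SD, n = 3 each). The difference was -0.64 ± 0.15 (limma adjusted p = 0.0236), a ratio of 0.640, in a comparison where 7.75% of all genes were called and 5.15% were called lower. The call was lost with the adipocyte covariate (-0.27, adjusted p = 0.532) and with the chromaffin covariate (-0.26, adjusted p = 0.820). Neither marker mean overlapped between germ-free insulin and colonized insulin arrays, so both fits extrapolate between the compared groups. It was also lost with the negative control covariate (-1.19, adjusted p = 0.930), where 0 of all genes were called. Leaving out colonized insulin animal 4 or 5 gave a limma adjusted p of 0.108 or 0.0902, and leaving out germ-free insulin animal 10, 11 or 12 gave 0.0820, 0.0664 or 0.0589. The other 7 fits without 1 array kept it.

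The other contrasts of Adar were not called. Germ-free minus colonized after saline was -0.24 ± 0.15 (limma adjusted p = 0.368), where 6.88% of genes were called. Insulin minus saline was -0.22 ± 0.15 in germ-free mice (adjusted p = 0.814), where 0.436% of genes were called, and 0.19 ± 0.15 in colonized mice (adjusted p = 0.632), where 0.149% were, 0.108% higher and 0.041% lower. The difference of insulin effects was -0.40 ± 0.21 (adjusted p = 0.556).  The effects of Adarb1 and Adar were not tested against each other.

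Adarb2 lay below the median of the negative controls on 12 of 12 arrays, with a value minus that median of -1.35 to -0.29, so its differences are not given as folds. Its values were 4.61, 4.33 and 4.22 in germ-free insulin, 4.08, 4.23 and 4.20 in germ-free saline, 4.47, 4.26 and 4.21 in colonized insulin, and 3.76, 4.30 and 3.87 in colonized saline mice. The groups overlapped in all 4 comparisons of 2 groups. None of the 5 contrasts was called by limma, with adjusted p values of 0.807 and 0.417 for insulin in germ-free and colonized mice and 0.893 for their difference. They were 0.832 and 0.480 for germ-free against colonized mice after insulin and after saline. The insulin contrast in colonized mice was among the 11.8% of genes that passed at an unadjusted p under 0.05, and the other 4 contrasts of Adarb2 did not pass.

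The genes around the family were described from 7 lists with 114 genes, 103 of them measured. After insulin 10 of the 103 were called between germ-free and colonized mice (9.71%, against 7.75% of all genes), 1 higher and 9 lower, where 2.6% and 5.15% of all genes were. After saline 7 were called (6.80%, against 6.88% of all genes), 3 higher and 4 lower, where 2.79% and 4.09% of all genes were. Over both directions these shares were near those of all genes, while after insulin 9 of the 10 calls were lower. With the adipocyte, chromaffin or negative control covariate 0 of the 103 were called after insulin. After saline 0 were called with the cortex, intestinal or negative control covariate or with the compared groups alone. Of all genes, 0 were called with the negative control covariate after insulin and 0 with the intestinal covariate after saline. A call lost in those fits, here or below, therefore says nothing about the gene itself. For the other fits the share of all genes is not given beside these counts. They are therefore not read as results about the listed genes. The adipocyte and chromaffin means after insulin and the cortex mean after saline did not overlap between germ-free and colonized arrays. Calls lost in those fits, here or below, therefore rest on extrapolation between the compared groups. At an unadjusted p under 0.05, 36.9% of the listed genes passed after insulin, against 22.5% of all genes, and 35% after saline, against 24.0%. Leaving out each array gave 7 to 26 calls after insulin, 26 without colonized saline animal 2. After saline it gave 0 to 10 calls, namely 0 without germ-free saline animal 7, 1 without animal 8, 2 without germ-free insulin animal 11, 3 without germ-free saline animal 9 or colonized insulin animal 4, and 4 without germ-free insulin animal 12 or colonized saline animal 1.

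Among regulators and partners of the enzymes, Wwp2, a ubiquitin ligase known to promote the breakdown of ADAR2, was lower in germ-free mice. Its values were 7.60, 7.67 and 7.67 in germ-free insulin mice, against 8.14, 8.28 and 8.32 in colonized insulin mice. They were 7.64, 7.71 and 7.90 in germ-free saline mice, against 8.23, 8.17 and 8.10 in colonized saline mice. In both treatments all germ-free arrays lay below all colonized arrays. The differences were -0.60 ± 0.10 after insulin (limma adjusted p = 0.00585), called in 12 of 12 fits without 1 array, and -0.42 ± 0.10 after saline (adjusted p = 0.0310), called in 8 of 12. The call after saline was lost without colonized saline animal 1, germ-free saline animal 7 or 8, or germ-free insulin animal 11, with an adjusted p of up to 0.120. The call after insulin was also lost with the adipocyte, chromaffin or negative control covariate, and the call after saline with the cortex, intestinal or negative control covariate or the compared groups alone.

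The rest of the 19 measured regulators were not called in any contrast, since Wwp2 was the 1 call of the list after insulin and the 1 call after saline. Creb1, a factor reported to induce ADAR2 in rat neurons, differed by -0.05 ± 0.11 after insulin and by -0.08 ± 0.11 after saline. Mapk8, the kinase JNK1, differed by 0.63 ± 0.18 after insulin (limma adjusted p = 0.0525). Dhx9, an RNA helicase that binds ADAR1, differed by -0.06 ± 0.11. For the difference of insulin effects the list had a median of 0.01, with 0 of 19 genes called by limma and 0 at an unadjusted p under 0.05.

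The recoded substrates were measured for 24 genes. Gria2, whose glutamine-to-arginine site ADAR2 edits, had 6.71, 6.48 and 7.21 in germ-free insulin mice, against 8.27, 8.01 and 8.03 in germ-free saline mice. It had 8.00, 7.66 and 7.38 in colonized insulin mice, against 7.91, 6.57 and 7.59 in colonized saline mice. The germ-free groups were separate and the colonized groups overlapped. Insulin minus saline was -1.30 ± 0.30 in germ-free mice (limma adjusted p = 0.120) and 0.32 ± 0.30 in colonized mice (adjusted p = 0.690), and the difference of these was -1.62 ± 0.42 (adjusted p = 0.227), none of them called. Unc80, a subunit of the sodium leak channel complex, was lower in germ-free insulin than in colonized insulin mice, by -1.47 ± 0.20 (adjusted p = 0.00303), and Son, a splicing cofactor, was higher by 0.64 ± 0.11 (adjusted p = 0.00721). Both were called in 12 of 12 fits without 1 array. Neither was called with the adipocyte or chromaffin covariate, nor with the negative control covariate, where 0 of all genes were called.

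After saline the substrates Gria4 (-0.66 ± 0.18) and Kcna1 (-1.30 ± 0.33) were lower in germ-free mice and Son was higher (0.42 ± 0.11), at limma adjusted p of 0.0448, 0.0367 and 0.0443. Without 1 array Gria4 was called in 2 of 12 fits (those without colonized saline animal 3 or germ-free insulin animal 12) and Son in 2 of 12 (without colonized saline animal 2 or colonized insulin animal 6). Kcna1 was called in 5 of 12, and lost its call without colonized insulin animal 4 or 5, any germ-free saline animal or germ-free insulin animal 11 or 12. Its size leaned on colonized saline animal 2, at 8.68 against 7.24 and 7.10 in animals 1 and 3, and without that animal it was -0.79. Gria4 had 5.86 to 5.96 in germ-free saline mice, near the negative control medians of those arrays (5.36 to 5.46). Adjusted p values in these fits reached 0.128 for Gria4, 0.159 for Son and 0.118 for Kcna1. All 3 calls were lost with the cortex, intestinal or negative control covariate or the compared groups alone. Cyfip2, Flna, Blcap, Copa and Azin1, whose messages carry edited sites, were not called in any contrast. In the difference of insulin effects these 5 ran from -0.28 (Blcap) to 0.45 (Flna). Flna had 11.80 in colonized saline animal 2, against 10.39 and 10.68 in animals 1 and 3. The 24 substrates had a median difference of -0.14, against -0.003 over all genes, with 15 of 24 below 0.

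The list of double-stranded RNA sensing, which ADAR1 editing keeps silent, comprised 19 measured genes, both sensors and genes that act with them. Ifih1 (MDA5) differed between germ-free insulin and colonized insulin mice by -0.23 ± 0.15, Eif2ak2 (PKR) by -0.21 ± 0.15 and Zbp1 by -0.20 ± 0.12, and none was called. Irf7, the interferon regulatory factor that amplifies the response, had 7.24, 7.57 and 7.35 in germ-free insulin mice, against 8.78, 9.39 and 8.62 in colonized insulin mice. The groups did not overlap and differed by -1.54 ± 0.18 (limma adjusted p = 0.00192), and the call held in 12 of 12 fits without 1 array but was lost with the adipocyte, chromaffin or negative control covariate. Mavs, the adaptor of these sensors, was lower in germ-free mice after saline, by -0.45 ± 0.11 (adjusted p = 0.0362). That call held in 4 of 12 fits, and was lost without colonized saline animal 1 or 3, colonized insulin animal 4, any germ-free saline animal or germ-free insulin animal 11 or 12, with an adjusted p of up to 0.120. It was also lost with the cortex, intestinal or negative control covariate or the compared groups alone.

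For the difference of insulin effects the sensing list had a median of -0.26, with 15 of 19 genes below 0. Limma called 0 of them, and 7 passed at an unadjusted p under 0.05 (36.8%, against 9.95% of all genes), all lower, where 5.26% of all genes were. The range ran from -1.15 (Irf7) to 0.32 (Mavs). Among 16 measured genes with a double-stranded RNA-binding domain the median was -0.03 with 0 passing at that level. Dicer1 and Drosha, the nucleases of microRNA maturation, had differences of -0.02 and -0.01, and Drosha differed by -0.35 ± 0.10 between germ-free and colonized mice after insulin (limma adjusted p = 0.0524).

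The exocytosis genes were listed because ADAR2 was tied to regulated secretion. Of 13 measured, Snap25 (-1.60 ± 0.24), Unc13a (-0.83 ± 0.19) and Syt7 (-0.71 ± 0.14) were lower in germ-free insulin than in colonized insulin mice, at limma adjusted p of 0.00424, 0.0224 and 0.0119. Snap25 is a core fusion protein, Unc13a primes vesicles, and Syt7 is a calcium sensor of chromaffin granules. Syt7 had 8.82, 8.69 and 8.61 in germ-free insulin mice, against 9.56, 9.48 and 9.23 in colonized insulin mice, without overlap. Without 1 array Snap25 was called in 12 of 12 fits, Syt7 in 9 and Unc13a in 7. Syt7 lost its call without colonized insulin animal 4 or germ-free insulin animal 11 or 12 (adjusted p up to 0.0611), and Unc13a without colonized insulin animal 4 or 5 or any germ-free insulin animal (up to 0.103). Nsf, the ATPase that recycles fusion complexes, was higher in germ-free mice after saline (0.61 ± 0.14, adjusted p = 0.0279), in 10 of 12 fits, and lost its call without germ-free saline animal 7 or 8 (up to 0.111). The chromaffin markers given above were lower in germ-free insulin than in colonized insulin mice beside these genes. The 10 neuron markers, a list that holds Snap25 itself, averaged 7.64 to 8.00 in germ-free insulin, 7.84 to 7.94 in germ-free saline, 8.16 to 8.65 in colonized insulin and 8.13 to 9.72 in colonized saline mice, and none of them lay below the negative control median on all arrays of a group. Germ-free arrays thus lay below all colonized arrays for the neuron list. The 7 Schwann and sustentacular cell markers averaged 6.23 to 6.44, 6.04 to 6.11, 6.35 to 6.71 and 6.50 to 7.82 in the same order of groups, with S100b below the negative control median in all but the colonized saline mice. The part of both lists in the exocytosis and substrate differences was not tested. With the chromaffin mean as a covariate limma called 0 of the 103 listed genes between germ-free and colonized mice after insulin, and likewise with the adipocyte or negative control covariate. The negative control fit called 0 of all genes in that contrast. The call of Nsf after saline was lost with the cortex, intestinal or negative control covariate or the compared groups alone.

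Deaminases of other substrates differed in the contrasts where they were called. In the difference of insulin effects 1 of 9 deaminase relatives and 1 of 9 cytidine deaminases and cofactors lay above 0. The list medians were -0.10 and -0.41, and limma called 0 in either list. At an unadjusted p under 0.05, 33.3% and 44.4% passed, against 9.95% of all genes. Of these, 1 was higher and 2 lower among the relatives, and 1 higher and 3 lower among the cytidine deaminases and cofactors. Ampd3, which deaminates AMP, had 9.31, 9.28 and 8.94 in germ-free insulin mice, against 10.19, 10.15 and 10.22 in germ-free saline mice and 10.47, 10.22 and 9.99 in colonized insulin mice. The germ-free insulin arrays lay below all others. Ampd3 was the 1 listed gene called for insulin in germ-free mice (-1.01 ± 0.16, limma adjusted p = 0.0177), where 0.297% of genes were called lower, and it was called against colonized insulin mice too (-1.05 ± 0.16, adjusted p = 0.00447). The insulin call was kept in 7 of 12 fits without 1 array and was lost without any germ-free saline animal or germ-free insulin animal 11 or 12 (adjusted p up to 0.110). The insulin call was also lost with the chromaffin covariate, where 11 of all genes were called, and with the intestinal covariate, where 0 were. Neither marker mean overlapped between germ-free insulin and germ-free saline arrays, so both fits extrapolate. The colonization call was kept in 12 of 12 fits without 1 array and lost with the adipocyte, chromaffin or negative control covariate.

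The cytidine deaminases Cda (-0.99 ± 0.18, limma adjusted p = 0.00825) and Apobec1 (-0.49 ± 0.13, adjusted p = 0.0391) were lower in germ-free insulin than in colonized insulin mice. Apobec1 edits the apolipoprotein B message in intestine and liver. Cda was called in 12 of 12 fits without 1 array and Apobec1 in 6, its call being lost without colonized insulin animal 4 or 5, germ-free saline animal 7 or any germ-free insulin animal (adjusted p up to 0.129). Apobec3, an antiviral deaminase, was higher in germ-free saline than in colonized saline mice (0.58 ± 0.11, adjusted p = 0.0117), and lost its call in 1 of 12 fits, without germ-free saline animal 7 (adjusted p = 0.0575). The calls of Cda and Apobec1 were lost with the adipocyte, chromaffin or negative control covariate, and that of Apobec3 with the cortex, intestinal or negative control covariate or the compared groups alone. Ada, which deaminates free adenosine, had a difference of insulin effects of -0.96 ± 0.30 (adjusted p = 0.336), Adat1, a transfer RNA deaminase, one of -0.10 ± 0.34 and A1cf, the cofactor of Apobec1, one of -0.09 ± 0.77. A1cf lay below the negative control median on all insulin arrays of both states. In colonized saline mice it had 4.34, 7.15 and 4.88, so its differences lean on animal 2.

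In the difference of insulin effects limma called 0 of the 103 listed genes. At an unadjusted p under 0.05, 17 were lower and 4 higher, where 5.26% and 4.69% of all genes were (20.4% against 9.95% in both directions). The median of the 103 was -0.12, against -0.003 over all genes, with 34 of 103 above 0. Of the lower ones 7 were genes of the sensing list, Irf7 among them, 3 substrates, 3 cytidine deaminases, 2 other deaminases and 2 exocytosis genes. For insulin in colonized mice limma called 0 of 103, and 16 passed at an unadjusted p under 0.05 (15.5%, against 11.8% of all genes). In germ-free mice 16 passed at that level too (15.5%, against 8.29% of all genes), 3 higher and 13 lower.

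**Figure D3:**
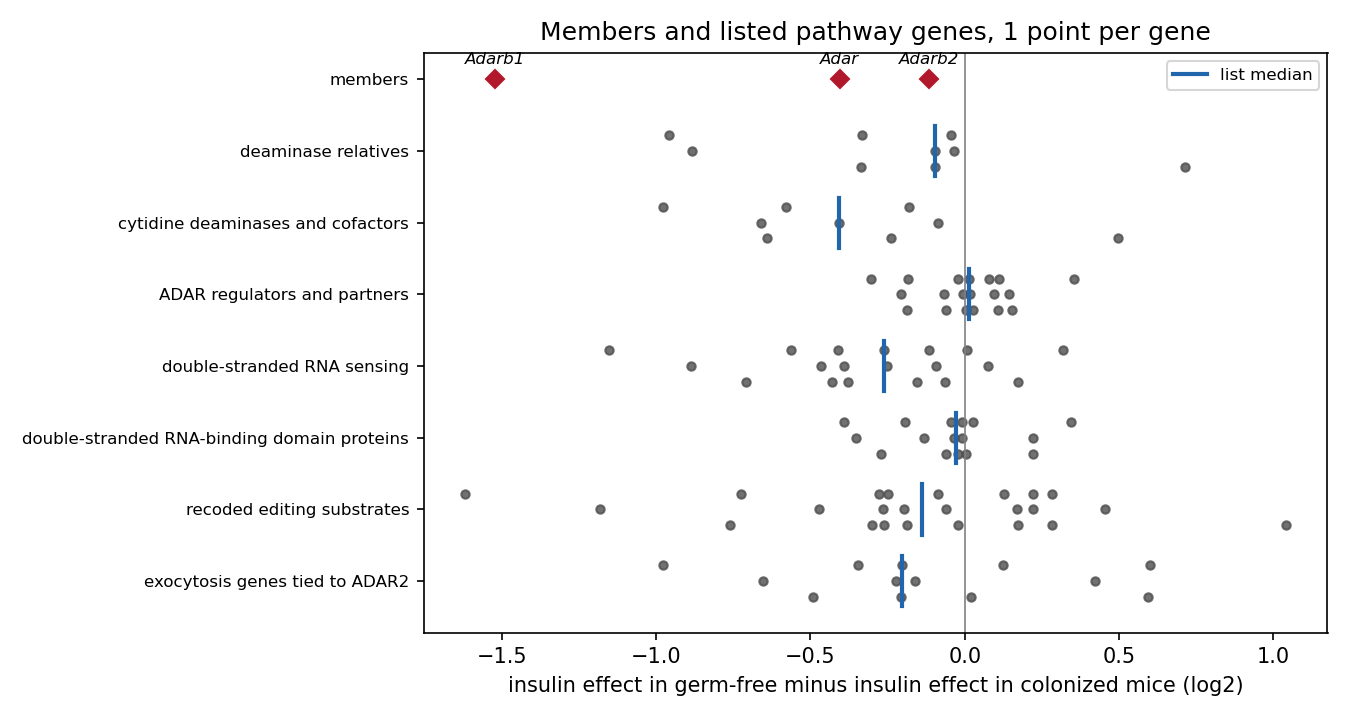
Insulin effect in germ-free minus insulin effect in colonized mice (horizontal axis, log2) for the 3 members (diamonds) and for each measured gene of the 7 pathway lists (grey points, vertical axis), with list medians in blue. Adarb1 (-1.52) was chosen by this difference and the listed genes were not, so its place among them is not read as a result. The list medians run from -0.41 to 0.01.

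The genes most like Adarb1 were found by Pearson correlation of log2 values over the 12 arrays, among 9556 genes with a mean above the median of all genes, leaving out predicted and clone symbols. The 8 highest were Flcn (r = 0.957), Pcna (0.955), Slc23a2 (0.954), Ints6l (0.951), Rbbp6 (0.950), Fam161a (0.948), Ralgapa1 (0.948) and Fubp1 (0.948). The 4 lowest were Smim26 (-0.975), Smarcd3 (-0.964), Cdyl2 (-0.954) and Palm (-0.945). In all, 37 genes had r above 0.9 and 26 below -0.9. The arrays fall into germ-free and colonized sets, which these correlations share, and the values are a description.

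Slc23a2, a vitamin C transporter, averaged 11.23 in germ-free insulin, 11.63 in germ-free saline, 10.71 in colonized insulin and 9.96 in colonized saline mice, in the order of Adarb1. Fam161a, a protein of the cilium base, averaged 8.99, 9.26, 8.26 and 7.58 in the same order of groups. Smim26, a small mitochondrial protein gene, ran the other way, at 7.15, 6.88, 7.30 and 7.57. When the group means were removed, r with Adarb1 was 0.79 for Slc23a2, 0.89 for Fam161a, -0.84 for Smim26 and 0.24 for Pcna. The 8 highest by these deviations (Exoc7, Gnai3, Rfwd3, Tasor2, Btaf1, Pkn2, Trp53inp1 and Utp14a, r = 0.916 to 0.950) shared 0 genes with the first 8.

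**Figure D4:**
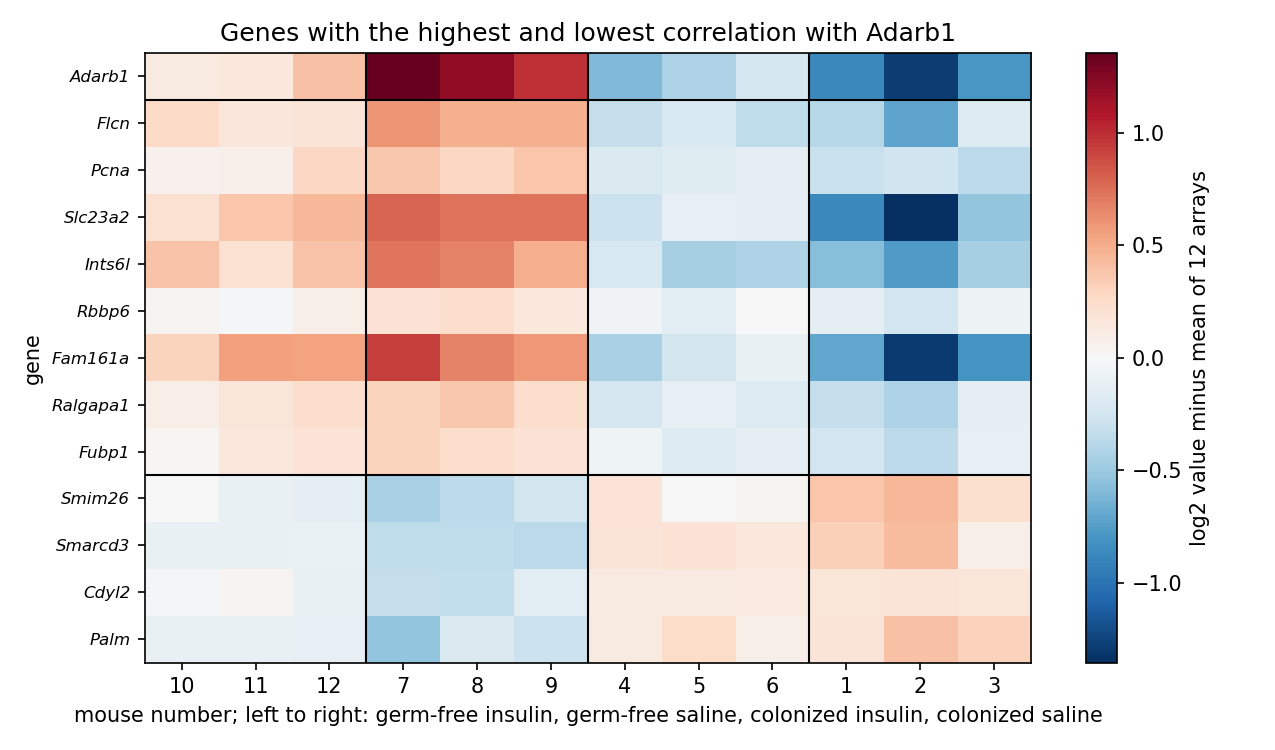
Log2 value minus the mean of the 12 arrays (colour) for Adarb1, the 8 genes with the highest and the 4 with the lowest correlation with it (rows), on each of the 12 arrays (columns, by mouse number). Adarb1 is highest in the 3 germ-free saline arrays and lowest in the 3 colonized saline arrays. The group means of the first 8 genes below it follow the order of the groups in Adarb1. Those of the last 4 run against it. For Pcna, Slc23a2, Fam161a, Smim26 and Cdyl2 no groups overlap, as for Adarb1. Single arrays of the other genes overlap between groups.

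The 4 genes most like Adar were Sdf2l1 (r = 0.951), Bmyc (0.942), Chrnb2 (0.936) and Dbn1 (0.935) over the 12 arrays. Sdf2l1 is a protein of the endoplasmic reticulum, and Chrnb2 is a nicotinic acetylcholine receptor subunit. Chrnb2 averaged 6.32 in germ-free insulin, 6.83 in germ-free saline, 7.55 in colonized insulin and 7.30 in colonized saline mice. With group means removed these 4 correlated with Adar at 0.82 to 0.85, and by that measure the 4 highest were Tpd52l2, Rtn4ip1, Rabif and Creld2.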

How the data were processed

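The 12 arrays are 1 per animal, and the authors deposited log2 intensities for them. The submitters' processing notes name RMA and limma, without versions or roles. Of 28846 rows, 19572 were paired with 1 gene symbol, 0 with several and the rest with none. A gene was counted by its probe set of highest mean (19505 genes). A mean per group was estimated by limma 3.58.1 under R 4.3.3 (lmFit, eBayes, 8 residual and 4.08 prior degrees of freedom), with no pseudocount and no filter. P values were adjusted by Benjamini-Hochberg over 19572 probe sets and called under 0.05. The steps were tested on simulated data. The number of arrays limits precision.

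The members, lists, named genes and tests were chosen with earlier results of these data known. Named were the members, 24 listed genes fixed by name (21 of them reported here), every listed gene called, and the genes of highest and lowest correlation. Symbols of the form Gm with digits or ending in Rik were not named. No protein sequences were used here. Alternatives covered row sets, normalization, eBayes options, array weights, covariates, compared groups alone and each array left out. Replicates are separate animals.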

Additional observations from a re-analysis of the deposited data

Results flagged for a closer look

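Adarb1 was flagged because insulin moved it in opposite directions, all germ-free insulin arrays lying below all germ-free saline arrays and all colonized insulin arrays above all colonized saline arrays. The difference of insulin effects was -1.52, from -0.96 in germ-free and 0.57 in colonized mice. The gene was chosen for this difference, so it was not tested. Irf7 was flagged for the same separation, with 7.24, 7.57 and 7.35 in germ-free insulin mice, against 7.75, 7.68 and 7.79 in germ-free saline mice, and 8.78, 9.39 and 8.62 in colonized insulin mice, against 8.35, 7.90 and 8.14 in colonized saline mice. Its difference of insulin effects was -1.15 (limma adjusted p = 0.158), not called, from -0.35 in germ-free and 0.80 in colonized mice. Separation of this kind was seen for 1.24% of all genes. Groups of 3 arrays were not searched for outlying samples.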

How the results depend on the processing

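For Adarb1 the direction of all 5 contrasts was the same in every fit but 1, the negative control covariate, which gave -0.40 for germ-free minus colonized after insulin. With the intestinal covariate the SE for insulin in germ-free mice was 0.49, against 0.16 without a covariate, so the sign is uncertain there. Sizes moved by more than the spread between animals with the intestinal covariate (-0.67 for insulin in germ-free mice, -1.24 for the difference of insulin effects, 1.86 for germ-free minus colonized after saline), with the cortex covariate (0.28 for insulin in colonized mice, -1.19 for the difference, 1.69 after saline), with the chromaffin covariate (0.41 for germ-free minus colonized after insulin) and with the negative control covariate (1.13 after saline). The cause was not tested, and the fits with the intestinal and negative control covariates extrapolate between groups. So do the chromaffin, adipocyte and cortex fits for colonization after insulin and for insulin in germ-free mice, and the cortex fit for colonization after saline. Without 1 array the difference was -1.62 to -1.37.

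For Adar the call of germ-free minus colonized after insulin ended with the adipocyte (-0.27), chromaffin (-0.26) and negative control (-1.19) covariates, and without 1 array the value was -0.80 to -0.55, called in 7 of 12 fits. Values of Adar that were not called changed sign with the chromaffin covariate (0.0202 for insulin in germ-free mice), the adipocyte covariate (-0.0081 for insulin in colonized mice) and the intestinal covariate (0.0350 for germ-free minus colonized after saline). Those of Adarb2 did so with the intestinal covariate (-0.0501 for insulin in germ-free mice), the adipocyte covariate (-0.0826 for germ-free minus colonized after insulin) and without germ-free insulin animal 10 (-0.0331, range -0.0331 to 0.16).

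Of the listed genes 1 was called for insulin in germ-free mice, against 9 with array weights, 5 with the compared groups alone, 3 with the cortex covariate, 0 with the chromaffin or intestinal covariate and 0 to 4 without 1 array. Calls over all genes went the same way, from 85 to 543 with array weights, 318 with the compared groups alone and 137 with the cortex covariate. They were 11 with the chromaffin and 0 with the intestinal covariate, and 25 to 199 without 1 array. For the difference array weights gave 2 in place of 0, where calls over all genes rose from 7 to 148. For germ-free minus colonized after insulin the 10 became 33 with array weights, 25 with the compared groups alone, 18 with the cortex covariate, 0 with the adipocyte, chromaffin or negative control covariate and 7 to 26 without 1 array. Over all genes the 1512 calls of that contrast became 3712 with array weights and 450 to 2841 without 1 array. After saline the 7 became 4 with a second quantile normalization or median centring, 12 with the adipocyte covariate, 0 with the compared groups alone or the cortex, intestinal or negative control covariate and 0 to 10 without 1 array. Over all genes the 1342 calls after saline became 432 to 1929 without 1 array. Over all genes the calls for insulin were 85 in germ-free (0 to 543 over all alternatives) and 29 in colonized mice (0 to 70), 7 for their difference (0 to 148), and 1512 and 1342 for colonization after insulin (0 to 3712) and after saline (0 to 2348). The intestinal covariate gave 0 for insulin in germ-free mice and for colonization after saline. The negative control covariate gave 0 for colonization after insulin.

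The median of all probe sets lay between -0.0399 and 0.0484 (log2) in all 5 contrasts, whether unscaled, quantile normalized again or median centred. Each member has 1 probe set, so no other could be tried, and Adarb2 has no value with dim probe sets left out. No paired analysis was possible because the animals carry numbers that no 2 groups share. The number of arrays and, for Adarb2, signal below the negative controls limit what these values show.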
